A study of Mus musculus with 24 samples.

Results

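Wnt ligands, their receptors and co-receptors, the secreted antagonists and a set of β-catenin and TCF/LEF genes were followed in primary fat cell precursors. Members were the 48 genes, of 49452 in the table, whose symbol belongs to the *Wnt*, *Fzd*, *Sfrp* or *Dkk* families or is *Wif1*, *Lrp5*, *Lrp6*, *Ror1*, *Ror2*, *Ctnnb1*, *Axin2*, *Lef1*, *Tcf7*, *Tcf7l1* or *Tcf7l2*. They comprise 19 ligands, 10 Frizzled receptors, 4 co-receptors, 9 secreted antagonists and 6 nuclear or cytoplasmic factors. RNA was sequenced from cultured stromal-vascular cells, the cells left once the lipid-filled adipocytes are removed, of brown adipose tissue (BAT) or epididymal white adipose tissue (vWAT) of C57BL/6 mice. The study's methods give male mice of 6 to 8 weeks for such preparations, with BAT pooled where cells were few. Cells received, by nucleofection, a non-targeting siRNA (siCtrl, titled siKO in the sample names) or an siRNA against the long noncoding RNA *H19* (siH19), and RNA was taken at day 0 (d0) or at day 3 (d3) of differentiation. Each of the 8 groups of depot, siRNA and day held 3 libraries. The names of the value columns carry a prefix that all BAT libraries share and that differs from the prefix of all vWAT libraries. No label says what the prefix stands for, so that depot and prefix cannot be told apart on either day. All d3 cells, controls included, had received an adipogenic mix whose components differed between depots, with indomethacin and triiodothyronine named for BAT and rosiglitazone and 3-isobutyl-1-methylxanthine for vWAT beside insulin and dexamethasone, so that depot and mix cannot be told apart at d3. No label says whether the libraries of a group came from separate animals or cultures, and the p-values measure only the spread between these libraries, which may be technical.

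Wnt proteins are secreted lipid-modified ligands that bind Frizzled receptors together with a co-receptor. With *Lrp5* or *Lrp6* as co-receptor they stabilise β-catenin, which works with TCF/LEF factors at target genes, whereas ligands such as *Wnt5a* and *Wnt11* are best known for β-catenin-independent signalling, in which *Ror1* and *Ror2* take part. Secreted frizzled-related proteins (*Sfrp*) and *Wif1* bind Wnt ligands outside the cell, and Dickkopf proteins such as *Dkk1* block *Lrp5* and *Lrp6*. In fat, β-catenin signalling is known for holding precursors back from adipogenesis.

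The siRNA is shown because every siH19 comparison rests on it. The knockdown libraries carry the number 3 in their names, and the number was read as entry 3 of the study's list of *H19* siRNAs, although the methods name a single oligo by a code that the list does not give. Its guide is given here, 5′ to 3′, with its seed (bases 2 to 8) in capitals, above its sense strand, where capitals mark the 19-base stretch found without a mismatch in 5 of the 7 *H19* transcripts of the GENCODE annotation.
siH19 guide: uGGUGUUCaagaaggcuggat
siH19 sense strand: CCAGCCUUCUUGAACACCAtt
In the longest of these transcripts (2286 bases) the stretch covers bases 1439 to 1457. As all siH19 libraries share a single siRNA, loss of *H19* and other effects of that siRNA cannot be told apart. The knockdown was visible in all 4 settings. *H19* fell from 130 ± 27.1 (SD, n = 3) to 4.36 ± 1.33 FPKM (SD, n = 3) in BAT at d0, from 89.8 ± 8.76 to 13.7 ± 2.79 FPKM (SD, n = 3) in BAT at d3, from 11.7 ± 0.528 to 1.21 ± 0.566 FPKM (SD, n = 3) in vWAT at d0 and from 8.59 ± 0.361 to 0.528 ± 0.38 FPKM (SD, n = 3) in vWAT at d3. The limma adjusted p of these 4 changes were 0.0022, 0.0013, 0.0046 and 0.0096. Each FPKM value gives the sequenced fragments of a gene relative to its transcript length and to the fragments mapped in that library, so that levels can be compared between genes.

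The promoters of 3 ligands are shown because *Wnt2* and *Wnt11* fell in both depots whereas *Wnt4* was the ligand that rose to the top of the vWAT list at d3. Each is the RefSeq window of 250 bases before and 50 bases after a start site (GRCm38.p6), read 5′ to 3′ on the strand of the gene. Capitals mark the TCF/LEF core, searched as CTTTGAT or CTTTGAA on both strands, the only motif searched.
Wnt2, chr6:18030396-18030695, minus strand: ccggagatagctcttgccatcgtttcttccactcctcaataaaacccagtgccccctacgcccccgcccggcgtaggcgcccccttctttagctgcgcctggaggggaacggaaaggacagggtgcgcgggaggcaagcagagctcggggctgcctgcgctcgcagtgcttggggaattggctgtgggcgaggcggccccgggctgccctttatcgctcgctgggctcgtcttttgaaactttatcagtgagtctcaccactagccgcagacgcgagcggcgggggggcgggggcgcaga
Wnt11, chr7:98834862-98835161, plus strand: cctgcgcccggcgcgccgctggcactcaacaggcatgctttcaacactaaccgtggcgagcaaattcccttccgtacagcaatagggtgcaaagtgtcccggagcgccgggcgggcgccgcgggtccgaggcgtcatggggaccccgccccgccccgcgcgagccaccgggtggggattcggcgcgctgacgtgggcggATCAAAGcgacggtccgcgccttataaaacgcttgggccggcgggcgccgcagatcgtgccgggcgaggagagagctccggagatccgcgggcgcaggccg
Wnt4, chr4:137277385-137277684, plus strand: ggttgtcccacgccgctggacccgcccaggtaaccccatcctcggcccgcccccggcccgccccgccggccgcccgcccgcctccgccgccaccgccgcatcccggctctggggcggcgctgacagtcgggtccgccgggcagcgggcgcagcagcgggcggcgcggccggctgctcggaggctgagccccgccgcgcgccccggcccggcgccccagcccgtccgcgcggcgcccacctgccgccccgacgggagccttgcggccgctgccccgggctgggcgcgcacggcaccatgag
This *Wnt11* window, the first of 2 listed for the gene, holds the core 51 bases before the start and the second holds none, and the windows of *Wnt2* and *Wnt4* do not hold these letters. Of the 34 members with a window (43 windows), 3 had a core, namely *Wnt5b*, *Wnt11* and *Dkk1*. That is 6.98% of the members' windows, against 8.65% of all 32851 windows of this length. The members' windows were rich in CpG, with a median of 26 CpG and 67.3% GC, whereas all windows had medians of 7 CpG and 52.7% GC.

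The libraries summed to 710794 to 841456 FPKM, 12311 to 13125 genes per library reached 1 FPKM and replicates correlated across genes with Pearson r of 0.988 to 0.991 on the log2 scale. The table holds no counts, so the depth behind a value is unknown, and 100 genes with a median of at least 5 FPKM were listed at 0 in some library. None of the members was among these 100. The labelled cell types were checked against marker lists. Adipocyte markers (7 genes) summed to 3167–3442 FPKM in BAT siCtrl cells at d0 and 34899–36403 FPKM at d3, and to 4122–4135 and 18060–18863 FPKM in vWAT. Of the 6 brown fat markers all had a mean of at least 1 FPKM in BAT siCtrl at d3, and their sum was 616.3–706.2 FPKM. In vWAT siCtrl at d3 the sum was 129.3–144.9 FPKM, with *Elovl3* (124 FPKM), *Cpt1b* (11.95 FPKM) and *Ppargc1a* (2.03 FPKM) at 1 FPKM or more, all 3 of which rose from d0, while *Ucp1* was listed at 0 in every vWAT group. Mesothelial markers (6 genes) summed to 129.7–152.4 FPKM in vWAT siCtrl at d0 and 41.09–51.19 FPKM at d3, with all 6 at 1 FPKM or more, against 5.141–5.92 and 1.358–3.442 FPKM in BAT, where 1 of the 6 reached 1 FPKM and *Krt8* was listed at 0. Macrophage markers (6 genes) summed to 287.3–317.6 FPKM at d0 and 464–506.4 FPKM at d3 in vWAT siCtrl, and to 130.7–163.5 and 126.4–157.7 FPKM in BAT. Most of this sum was *Lyz2*, at 230.2 and 443.4 FPKM in vWAT siCtrl and 121.4 and 128.4 FPKM in BAT siCtrl. From d0 to d3 in vWAT siCtrl, 2 of the 6 macrophage markers were called higher and 4 lower (median log2 change -0.58). In BAT siCtrl 4 of the 5 tested were called lower and 0 higher (median -1.09). Skeletal muscle markers (5 genes) summed to 31.61–52.15 FPKM in BAT siCtrl and 30.13–39.04 FPKM in vWAT siCtrl at d0, with *Myog* at 14.3 and *Myod1* at 3.47 FPKM in BAT against 0 and 0.0167 FPKM in vWAT, and mural markers (4 genes) to 17.43–19.5 and 6.886–7.586 FPKM, with 3 of the 4 called higher in BAT. The part of these cells in the depot differences given further on was not tested, and in bulk RNA fewer cells of a type and less RNA per cell cannot be told apart.

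Of the 48 members, 13 had a mean of at least 10 FPKM over the 24 libraries, 14 lay between 1 and 10 FPKM and 21 lay below 1 FPKM. There were 30 members with at least 1 FPKM in 3 or more libraries, and 17 never reached 1 FPKM. The 17 were the ligands *Wnt1*, *Wnt3*, *Wnt3a*, *Wnt7a*, *Wnt7b*, *Wnt8a*, *Wnt8b*, *Wnt9b*, *Wnt10a* and *Wnt10b*, the receptors *Fzd9* and *Fzd10*, and the antagonists *Dkk1*, *Dkk2*, *Dkk4*, *Sfrp5* and *Wif1*. *Wnt3a* and *Dkk4* were listed at 0 in all 24 libraries. *Wnt10b*, a ligand known for restraining adipogenesis, stayed between 0 and 0.4045 FPKM, and *Lef1* reached 1 FPKM in a single library, siH19 replicate 3 of BAT at d0, with 1.398 FPKM. *Wnt10b* lies 11.7 kb from *Wnt1*, *Wnt6* lies 6.2 kb from *Wnt10a*, and of these neighbours only *Wnt6* was among the 30.

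**Figure D1:**
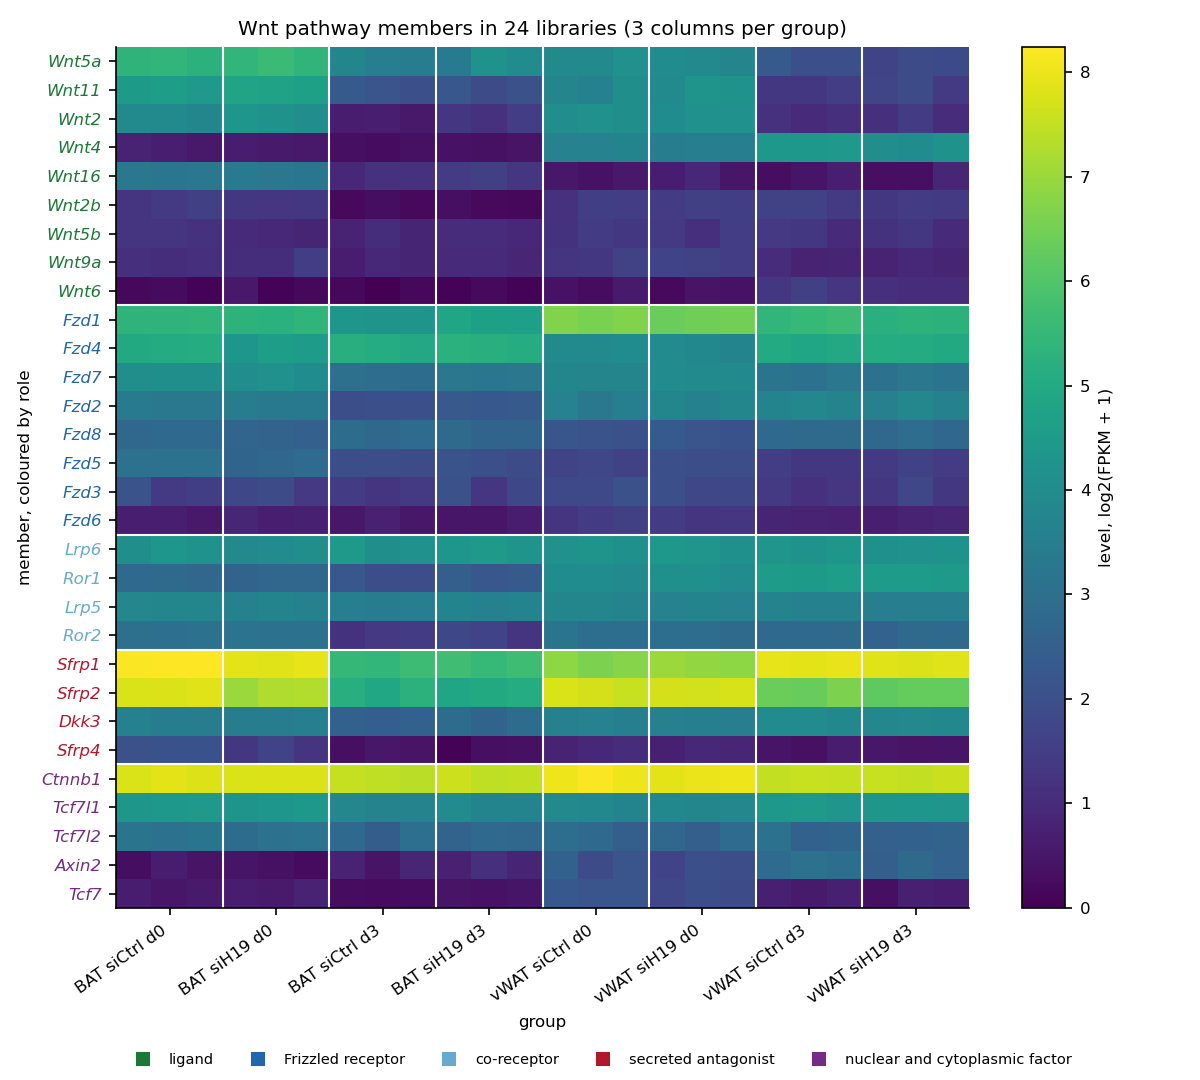
Levels of the 30 members that reached 1 FPKM in at least 3 of 24 libraries, as log2(FPKM + 1), with 1 row per member (name coloured by role), 1 column per library and white lines between groups of 3 libraries and between roles. *Sfrp1*, *Sfrp2* and *Ctnnb1* are the brightest rows, *Wnt4* and *Axin2* are bright in vWAT and dark in BAT, and *Wnt16* is bright in BAT at d0 alone.

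The ligand mix differed between depots and days. *Wnt5a* led in BAT, with 44.9% ± 0.31 (SD, n = 3) of the summed ligand FPKM in siCtrl at d0 and 59.6% ± 2.8 (SD, n = 3) at d3. In vWAT siCtrl at d0 the shares of *Wnt2* (25.9% ± 2.3, SD, n = 3), *Wnt5a* (24% ± 0.69) and *Wnt11* (21% ± 2.3) lay close together. At d3 *Wnt4* alone held 61% ± 2.4 (SD, n = 3) there, followed by *Wnt5a* with 10.2% ± 1.4. The antagonist pool was *Sfrp1* and *Sfrp2* almost throughout. *Sfrp1* held 55.8% ± 0.45 (SD, n = 3) and *Sfrp2* 41.4% ± 0.51 of it in BAT siCtrl at d0, while in vWAT siCtrl *Sfrp2* led at d0 with 63.4% ± 1.8 and *Sfrp1* at d3 with 70.8% ± 1.5. Among the Frizzled receptors *Fzd1* and *Fzd4* held the largest shares in the 4 siCtrl groups. *Fzd1* had 67.5% ± 0.049 (SD, n = 3) in vWAT siCtrl at d0, where *Fzd4* had 9.85% ± 0.27, and *Fzd4* led in BAT siCtrl at d3 with 45.1% ± 1.1. These shares are descriptions and were not tested.

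**Figure D2:**
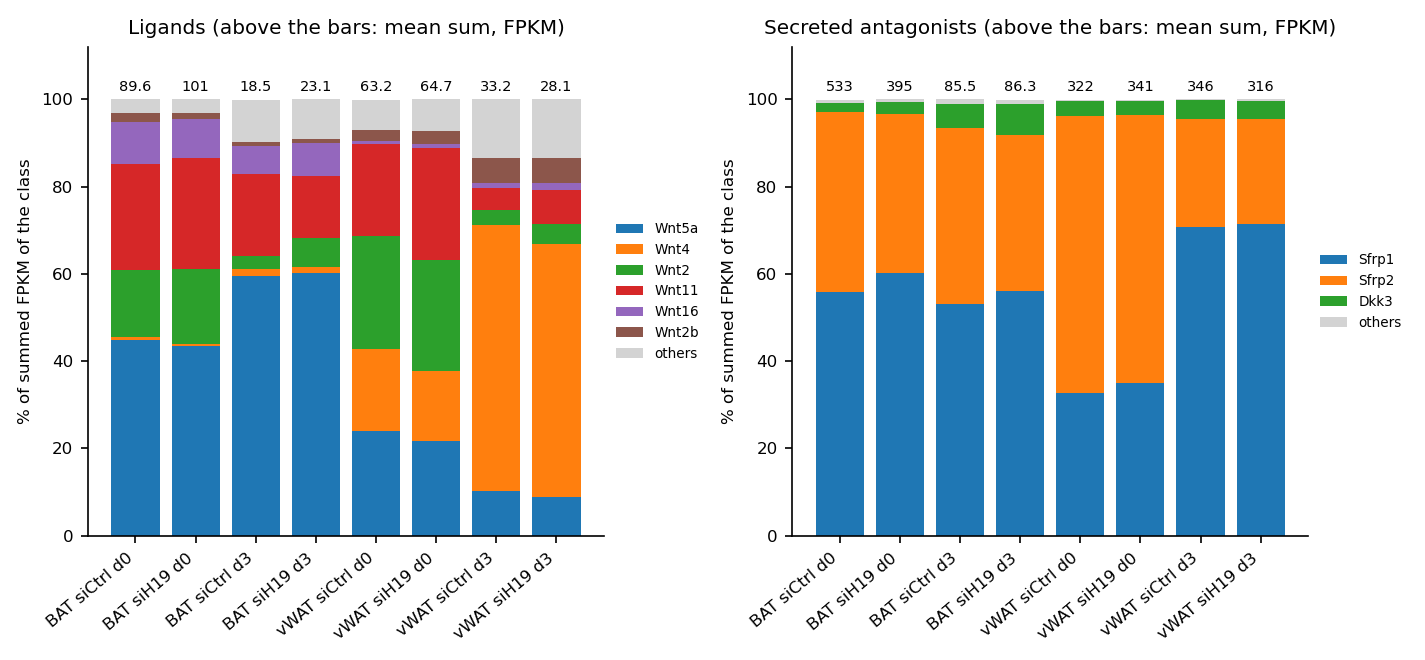
Share of each gene in the summed FPKM of the 19 ligands (left) and the 9 secreted antagonists (right), as means of 3 libraries per group, with the mean sum in FPKM above each bar. *Wnt5a* fills the largest part of the BAT ligand bars and *Wnt4* that of the vWAT bars at d3, and the antagonist sum falls from 533 to 85.5 FPKM in BAT siCtrl while it is 322 and 346 FPKM in vWAT siCtrl.

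The change from d0 to d3 in siCtrl cells shows how the pathway stood during differentiation, from cells that already held adipocyte markers at d0. The limma fits used log2(FPKM + 1), and a call needed a Benjamini-Hochberg adjusted p under 0.05 over all genes tested together with a change of at least 1.3-fold. All log2 changes are on this scale, on which low genes appear to change less than they do. In BAT, 25 members passed the filter of 1 FPKM in at least 3 of the 6 libraries and 17 were called, all of them lower. The other members were not tested, among them *Axin2*, with means of 0.378 FPKM at d0 and 0.653 FPKM at d3. Of the 17 called, *Wnt2*, *Wnt2b* and *Sfrp4* were below 1 FPKM in every d3 library. They passed the filter through d0 alone and could only come out lower. Without any 1 d0 library these genes no longer passed, and 13 or 14 members were called. Over all genes 65.2% of the 13001 genes were called, 29.9% higher and 35.3% lower. The median log2 change was -1.07 over the members tested and -0.099 over all genes. In vWAT, 19 of 28 members were called, 8 higher and 11 lower, where 50.3% of 13368 genes were called, 26.3% higher and 23.9% lower, with medians of -0.10 over the members and 0.011 over all genes. There *Tcf7* and *Fzd6* were below 1 FPKM in every d3 library and *Wnt6* in every d0 library, which fixed their direction. With trimmed-mean scaling the BAT calls over all genes went from 3881 higher and 4590 lower to 4309 and 4127. Those of vWAT went from 3519 and 3201 to 3279 and 3421. The members then stood at 16 lower in BAT, without *Tcf7l2*, and at 8 higher and 11 lower in vWAT.

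Among the ligands, *Wnt2*, a β-catenin-activating ligand, was high at d0 in both depots. In BAT siCtrl it stood at 14.43, 14.02 and 12.72 FPKM at d0 and at 0.573, 0.6 and 0.4791 FPKM at d3, and in vWAT siCtrl at 15.53, 17.0 and 16.34 FPKM and then 1.255, 1.038 and 1.206 FPKM. The days did not overlap in either depot, which the filter of 1 FPKM fixed in BAT, where every d3 library was below it. The log2 changes were -3.25 (SE 0.083, limma adjusted p = 1.5e-07) in BAT and -3.00 (SE 0.0774, limma adjusted p = 5e-07) in vWAT, and the difference of -0.25 between the depots was not called (limma adjusted p = 0.061), although it was called with a pseudocount of 0.1, with no intensity trend, and without siCtrl replicate 3 of BAT at d0 or replicate 2 of vWAT at d3. *Wnt5a* fell from 40.35, 42.07 and 38.32 to 12.68, 10.52 and 9.94 FPKM in BAT siCtrl and from 14.41, 14.07 and 17.1 to 4.021, 3.073 and 3.072 FPKM in vWAT siCtrl. Its log2 changes of -1.78 (SE 0.0932) and -1.89 (SE 0.118) were close to each other, and *Wnt11* fell by 2.34 (SE 0.102) in BAT and by 2.44 (SE 0.137) in vWAT. *Wnt4* went the other way. It rose in vWAT siCtrl from 11.65, 11.59 and 12.23 to 20.0, 20.09 and 20.63 FPKM (log2 change 0.73, SE 0.0522, limma adjusted p = 3.3e-05), while the BAT siCtrl libraries lay between 0.2171 and 0.7311 FPKM on both days. *Wnt6* rose in vWAT from 0.351 to 1.66 FPKM (log2 change 0.98). *Wnt16* fell in BAT from 8.928, 8.354 and 8.618 to 0.9155, 1.245 and 1.274 FPKM (log2 change -2.17, SE 0.0944), and its vWAT siCtrl libraries reached at most 0.6168 FPKM.

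The Frizzled receptors split. *Fzd1*, the receptor with the highest mean, fell alike, from 40.03, 40.23 and 40.81 to 19.67, 18.34 and 18.11 FPKM in BAT and from 100.6, 95.72 and 102.6 to 41.97, 44.66 and 49.11 FPKM in vWAT. The log2 changes were -1.07 (SE 0.0499) and -1.12 (SE 0.0647), and their difference was 0.05 (SE 0.0803, limma adjusted p = 0.61). *Fzd4* rose in vWAT from 14.23, 14.26 and 15.11 to 31.78, 27.96 and 30.34 FPKM (log2 change 1.00, SE 0.0636, limma adjusted p = 2e-05), whereas in BAT it stood at 32.5 FPKM at d0 and 33.0 FPKM at d3. *Fzd8* likewise rose in vWAT (log2 change 0.72) and was not called in BAT (0.05). *Fzd2*, *Fzd5* and *Fzd7* fell in BAT by 1.32, 1.14 and 1.12 on the log2 scale, and of these *Fzd7* was also lower in vWAT, by 0.59. Of the co-receptors, *Lrp5* and *Lrp6* were called in neither depot. *Lrp6*, the co-receptor with the highest mean, held 16.31, 18.89 and 17.52 FPKM at d0 and 20.83, 16.39 and 17.0 FPKM at d3 in BAT, and 16.84, 18.13 and 16.67 and then 18.63, 17.47 and 19.49 FPKM in vWAT, where the days overlapped in both depots. It was called in no comparison, and among the ligands the same held for *Wnt5b*, whose siCtrl means were 1.32 and 0.903 FPKM in BAT and 1.51 and 1.39 FPKM in vWAT. The receptor kinase *Ror2* fell in BAT from 7.209, 7.06 and 7.347 to 1.322, 1.58 and 1.746 FPKM (log2 change -1.69, SE 0.0883), and *Ror1* fell in BAT (-0.74, SE 0.0991) but rose in vWAT (0.57, SE 0.0612).

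Among the antagonists *Sfrp1* went opposite ways in the depots. It was the most abundant member in BAT siCtrl at d0, with 293.9, 301.5 and 297.5 FPKM, and stood at 44.37, 42.44 and 49.17 FPKM at d3. In vWAT siCtrl it went from 113.0, 97.33 and 105.3 to 245.7, 240.9 and 247.4 FPKM. All d3 libraries were below the d0 libraries in BAT and above them in vWAT. The log2 change was -2.69 (SE 0.0578, limma adjusted p = 7.9e-08) in BAT and 1.21 (SE 0.057, limma adjusted p = 5.1e-06) in vWAT, and the difference between them was -3.90 (SE 0.0842, limma adjusted p = 3.2e-10). *Sfrp2* fell in both, from 216.2, 220.5 and 225.8 to 35.5, 29.94 and 38.14 FPKM in BAT (log2 change -2.65) and from 218.1, 206.4 and 188.1 to 83.36, 78.36 and 96.02 FPKM in vWAT (-1.24). *Sfrp4* fell in BAT from 3.21 to 0.355 FPKM (-1.64), and *Dkk3*, a divergent Dickkopf, fell in BAT from 10.5 to 4.79 FPKM (-0.99). Of the remaining factors, *Ctnnb1*, which encodes β-catenin, stood at 216.1, 238.2 and 222.5 FPKM in BAT at d0 and 183.8, 174.9 and 166.3 FPKM at d3, a log2 change of -0.36 below the minimum fold. It fell in vWAT by 0.56, from 260.4, 292.8 and 259.2 to 179.8, 186.3 and 182.8 FPKM. *Axin2*, a negative regulator and well-known target of the β-catenin branch, rose in vWAT from 4.873, 2.648 and 3.504 to 6.358, 7.406 and 6.916 FPKM (log2 change 0.78, SE 0.174, limma adjusted p = 0.0068), and *Tcf7* fell there from 3.58 to 0.604 FPKM (-1.51). *Tcf7l1* fell in BAT (-0.67) and rose in vWAT (0.56).

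**Figure D3:**
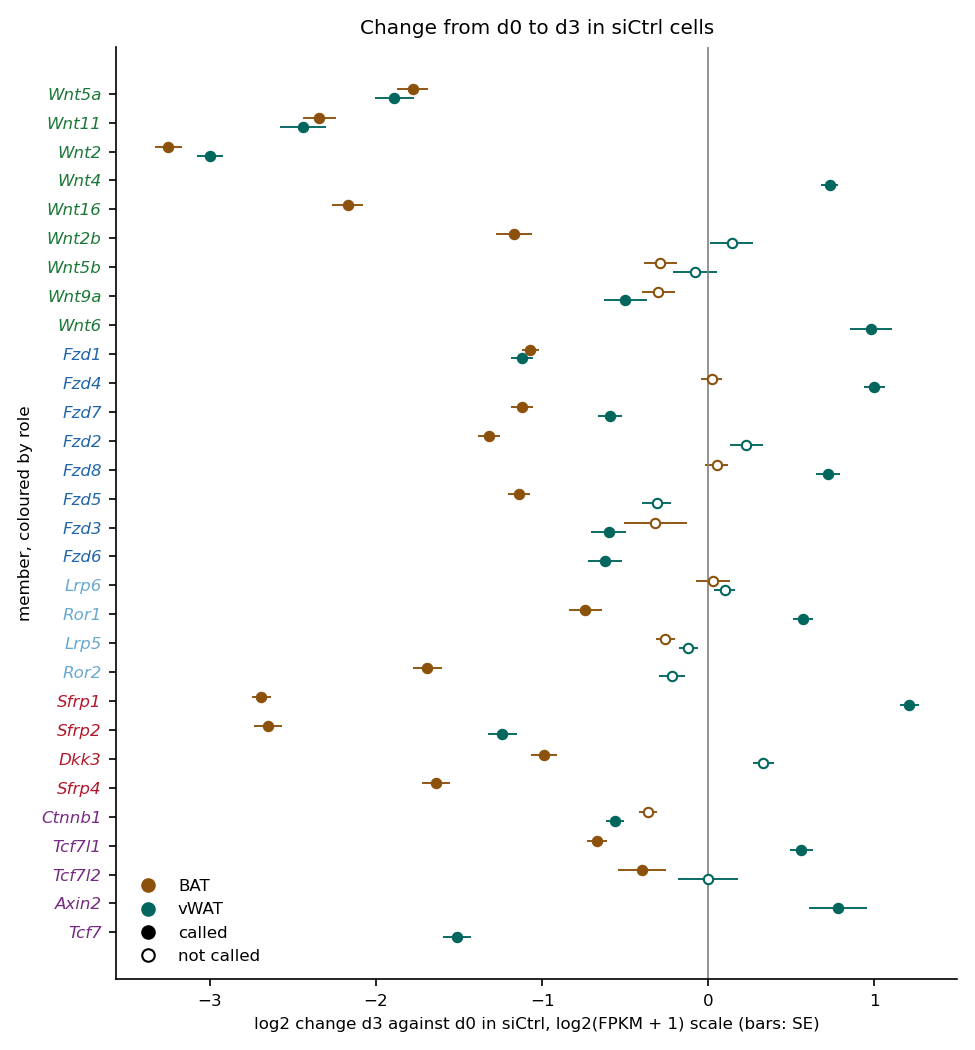
Log2 change from d0 to d3 in siCtrl cells on the log2(FPKM + 1) scale (x axis) for each member tested (y axis, name coloured by role), with SE bars, in BAT (brown) and vWAT (green). Filled points were called, and all 17 filled BAT points lie left of 0 while the 19 filled vWAT points lie on both sides. In BAT *Wnt2*, *Wnt2b* and *Sfrp4* passed the filter through d0 alone, so their points could only lie on the left if called.

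The depots were tested against each other in the change over time. The depot-by-day term was called for 18 of 30 members, 16 of them negative (a lower change in BAT) and 2 positive, against 53.0% of 14111 genes, 28.1% negative and 24.9% positive. All 6 precursor markers were also called negative for this term (median -1.35). Their sum went from 1178–1307 to 375.7–416.3 FPKM in BAT siCtrl, where all 6 were called lower at d3. In vWAT siCtrl the sum went from 571.5–638.7 to 698.5–779.5 FPKM, with *Ly6a* going from 321.2 to 534.9 FPKM. There 1 of the 6 markers was called higher and 4 were called lower (median -0.50). The part of these markers was not tested. After *Sfrp1*, the largest differences in log2 change were those of *Wnt16* (-2.15), *Fzd2* (-1.55), *Ror2* (-1.47), *Sfrp2* (-1.41), *Dkk3* (-1.32), *Wnt2b* (-1.31) and *Ror1* (-1.30). For *Tcf7*, which fell in vWAT from a level that BAT did not have, the term was 1.20. With trimmed-mean scaling of the libraries the median of this term over all genes moved by 0.120 on the log2 scale and the split over all genes turned from 3514 positive and 3959 negative to 4392 and 3217, while the members' split was 3 positive and 16 negative.

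The siCtrl libraries behind these terms were as follows, first for receptors called lower at d3 in BAT and not called in vWAT. *Fzd2* went from 9.188, 8.914 and 8.772 FPKM at d0 to 2.967, 2.992 and 3.004 FPKM at d3 in BAT and from 11.62, 8.919 and 10.81 to 12.2, 12.93 and 11.89 FPKM in vWAT. *Fzd5* went from 7.623, 7.436 and 7.558 FPKM at d0 to 2.911, 2.913 and 2.792 FPKM at d3 in BAT and from 2.252, 2.377 and 2.093 to 1.809, 1.552 and 1.503 FPKM in vWAT. *Ror2* went from 7.209, 7.06 and 7.347 FPKM at d0 to 1.322, 1.58 and 1.746 FPKM at d3 in BAT and from 7.957, 6.948 and 6.822 to 6.014, 6.085 and 6.146 FPKM in vWAT. For all 3 the days were apart in BAT. In vWAT they were also apart, and the changes of *Fzd5* (-0.31, limma adjusted p = 0.019) and *Ror2* (-0.22, limma adjusted p = 0.045) missed the minimum fold, with *Fzd5* called lower at a pseudocount of 0.1. *Ror1* went from 6.048, 6.135 and 5.572 FPKM at d0 to 3.67, 2.904 and 2.897 FPKM at d3 in BAT and from 15.08, 15.26 and 14.13 to 22.49, 21.26 and 23.54 FPKM in vWAT. *Tcf7l1* went from 19.78, 19.86 and 20.6 FPKM at d0 to 13.0, 11.93 and 11.76 FPKM at d3 in BAT and from 13.55, 13.49 and 12.13 to 19.85, 20.9 and 18.62 FPKM in vWAT. *Dkk3* went from 11.31, 9.996 and 10.18 FPKM at d0 to 4.915, 4.523 and 4.94 FPKM at d3 in BAT and from 11.02, 11.63 and 10.84 to 14.87, 14.63 and 13.51 FPKM in vWAT. These 3 genes were lower at d3 in every BAT library and higher at d3 in every vWAT library, although the vWAT change of *Dkk3* (0.33) missed the minimum fold. *Tcf7l1* encodes a TCF factor known mainly as a repressor. *Fzd7* went from 15.66, 16.24 and 16.07 FPKM at d0 to 7.272, 6.774 and 6.457 FPKM at d3 in BAT and from 12.64, 12.51 and 12.35 to 7.981, 7.337 and 8.641 FPKM in vWAT. *Fzd8* went from 5.944, 6.028 and 6.034 FPKM at d0 to 6.476, 5.833 and 6.39 FPKM at d3 in BAT and from 3.577, 3.273 and 3.12 to 6.028, 6.138 and 6.227 FPKM in vWAT. *Sfrp4* went from 3.168, 3.205 and 3.252 FPKM at d0 to 0.2621, 0.4404 and 0.3617 FPKM at d3 in BAT and from 0.7782, 0.8943 and 1.07 to 0.3711, 0.2794 and 0.5943 FPKM in vWAT. *Fzd7* was lower at d3 in both depots, *Fzd8* was higher at d3 in vWAT alone, and *Sfrp4* was at most 1.07 FPKM in the siCtrl libraries other than those of BAT at d0. *Wnt2b* went from 1.356, 1.669 and 1.958 FPKM at d0 to 0.1452, 0.2489 and 0.1503 FPKM at d3 in BAT and from 1.255, 1.916 and 1.827 to 2.06, 2.081 and 1.648 FPKM in vWAT. Its change in vWAT was not called. The vWAT libraries of *Wnt16* held 0.4445, 0.3347 and 0.4918 FPKM at d0 and 0.2369, 0.3864 and 0.6168 FPKM at d3. Both ligands were lower at d3 in BAT and overlapped between days in vWAT. *Tcf7* went from 0.5503, 0.4079 and 0.5276 FPKM at d0 to 0.2193, 0.181 and 0.2129 FPKM at d3 in BAT and from 3.772, 3.467 and 3.5 to 0.6608, 0.5031 and 0.6478 FPKM in vWAT. *Fzd6* went from 0.607, 0.6256 and 0.492 FPKM at d0 to 0.4437, 0.7063 and 0.4349 FPKM at d3 in BAT and from 1.383, 1.686 and 1.931 to 0.8035, 0.7129 and 0.6859 FPKM in vWAT. *Wnt6* went from 0.1214, 0.1843 and 0.06642 FPKM at d0 to 0.1261, 0.0 and 0.1305 FPKM at d3 in BAT and from 0.3235, 0.2093 and 0.5209 to 1.498, 1.977 and 1.491 FPKM in vWAT. These 3 genes and *Wnt4*, with 0.7311, 0.6183 and 0.4656 FPKM in BAT at d0, were below 1 FPKM in every BAT siCtrl library. As *Wnt16* was below 1 FPKM in every vWAT library, the terms of these 5 genes restate the change in the depot where each is high.

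At d0, BAT and vWAT siCtrl cells differed in 16 of 29 members, 10 higher and 6 lower in BAT, against 31.2% of 13139 genes, 10.2% higher and 21.0% lower. Depot and the prefix of the column names cannot be told apart here. Adipocyte markers were already present at d0, with *Fabp4* at 1995 FPKM in BAT and 2536 FPKM in vWAT. The ligand *Wnt16* was 8.63 FPKM in BAT and 0.424 FPKM in vWAT (log2 difference 2.76, SE 0.0822, limma adjusted p = 2e-06) and *Wnt4* was 0.605 and 11.8 FPKM (-3.00, SE 0.0891, limma adjusted p = 2e-06). The libraries did not overlap for either, which the filter fixed, since every library of the low depot was below 1 FPKM. *Axin2*, *Tcf7* and *Fzd6* were likewise below 1 FPKM in every BAT siCtrl library at d0. Without any 1 vWAT d0 library these genes and *Wnt4* no longer passed the filter, leaving 2 of the 6 lower calls. *Axin2* (-1.74), *Tcf7* (-1.62), *Fzd1* (-1.28) and *Ror1* (-1.19) were lower in BAT, and *Sfrp1* (1.49), *Fzd5* (1.40), *Wnt5a* (1.35), *Sfrp4* (1.14) and *Fzd4* (1.11) were higher. At d3, 16 of 25 members were called, 3 higher (*Wnt5a* 1.46, *Wnt11* 0.78 and *Fzd5* 0.56) and 13 lower in BAT, against 48.6% of 13120 genes, 16.5% higher and 32.1% lower. *Wnt4* had 0.272, 0.2171 and 0.2933 FPKM in BAT and 20.0, 20.09 and 20.63 FPKM in vWAT, a log2 difference of -4.07 (SE 0.0712, limma adjusted p = 1.9e-07). It was followed by *Ror1* (-2.50), *Sfrp1* (-2.41), *Axin2* (-2.27), *Fzd2* (-1.74), *Ror2* (-1.48) and *Dkk3* (-1.40). Of the members called lower in BAT, *Wnt4*, *Axin2*, *Wnt2*, *Wnt2b* and *Wnt6* were below 1 FPKM in every BAT siCtrl library at d3. Without any 1 vWAT d3 library they no longer passed the filter, and 8 or 9 members were called lower. The sum of mesothelial markers was also far higher in vWAT on both days, and its part in these differences was not tested. Trimmed-mean scaling moved the median of all genes by 0.136 at d0 and 0.259 at d3 on the log2 scale, and turned the calls over all genes from 1343 higher and 2753 lower to 1961 and 1836 at d0 and from 2162 and 4216 to 3817 and 2632 at d3. Relative to that shift the members stood at 11 higher and 6 lower at d0, with *Fzd7* added, and at 4 higher and 11 lower at d3, with *Fzd4* added as higher and *Tcf7l1* and *Wnt2* no longer called.

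**Figure D4:**
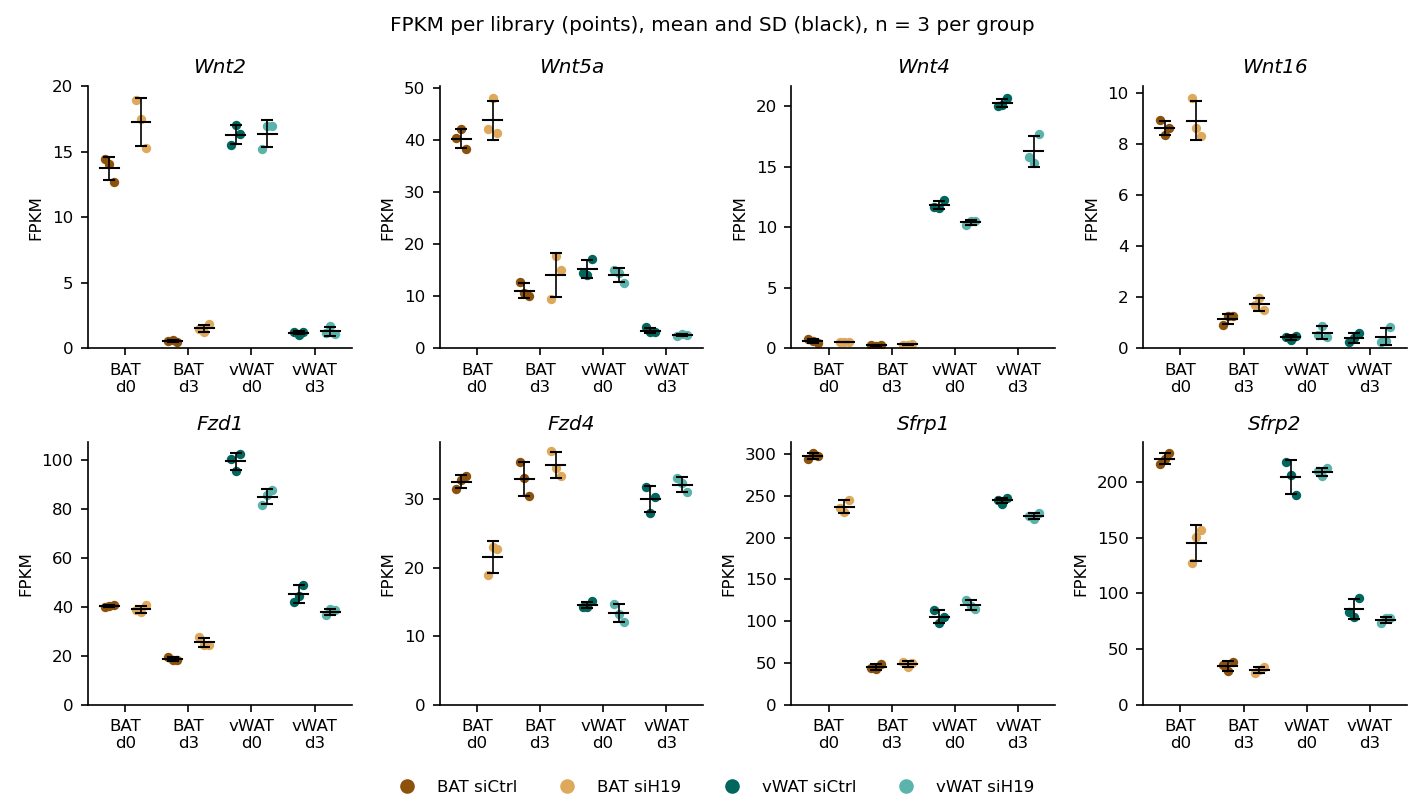
FPKM of 4 ligands, 2 Frizzled receptors and 2 antagonists in each of the 24 libraries (points), with the mean and SD of each group in black (n = 3, y axes start at 0). *Wnt2* and *Wnt5a* drop from d0 to d3 in both depots, *Wnt4* is near 0 in all BAT groups, and *Sfrp1* drops in BAT and climbs in vWAT.

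With *H19* knocked down few members were called. In BAT at d0, 3 of 25 members were called, all lower, against 1.94% of 12651 genes, 1.32% lower. *Sfrp2* stood at 216.2, 220.5 and 225.8 FPKM in siCtrl and 127.3, 150.9 and 157.2 FPKM in siH19 (log2 change -0.61, SE 0.079, limma adjusted p = 0.026). *Fzd4* stood at 31.48, 32.79 and 33.38 FPKM and at 18.94, 22.99 and 22.74 FPKM (-0.58, SE 0.0818, limma adjusted p = 0.026), and *Sfrp4* at 3.168, 3.205 and 3.252 FPKM and at 1.524, 2.15 and 1.363 FPKM (-0.66, SE 0.125, limma adjusted p = 0.049). For all 3 genes the siH19 values were lower than the lowest siCtrl value. *Sfrp1* had 298 and 237 FPKM, a log2 change of -0.33 (limma adjusted p = 0.019) under the minimum fold. The adipocyte marker sum was also lower in these siH19 libraries, 1595–2130 against 3167–3442 FPKM, with 6 of 7 markers called lower, and its part in these changes was not tested. The 3 calls did not survive the loss of siH19 replicate 3 or of any of the 3 siCtrl libraries, each of which left 0 members called, and without siH19 replicate 2 only *Sfrp4* was called (1 member). With trimmed-mean scaling *Sfrp4* was lost, and the calls over all genes went from 78 higher and 167 lower to 98 and 134.

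In BAT at d3, 2 of 22 members were called, both higher in siH19, against 8.57% of 12500 genes, 6.39% higher. *Wnt2* stood at 0.573, 0.6 and 0.4791 FPKM in siCtrl and 1.464, 1.264 and 1.834 FPKM in siH19 (log2 change 0.70, SE 0.119, limma adjusted p = 0.012). *Fzd1* stood at 19.67, 18.34 and 18.11 FPKM and at 27.53, 24.52 and 24.32 FPKM (log2 change 0.42, SE 0.0697, limma adjusted p = 0.011). The groups did not overlap for either gene. For *Wnt2* the filter fixed this and the direction, as every siCtrl library was below 1 FPKM. Both genes had fallen from d0 to d3 in siCtrl, a comparison that uses the same d3 siCtrl libraries. *Fzd2* (0.30) and *Fzd7* (0.29) had limma adjusted p of 0.043 and 0.041 but missed the minimum fold. The median change was 0.13 over the members and 0.051 over all genes. Precursor markers (6 genes) summed to 618.6–678.3 FPKM in these siH19 libraries against 375.7–416.3 FPKM in siCtrl, brown fat markers to 384.2–414.9 against 616.3–706.2 FPKM and macrophage markers to 79.74–90.35 against 126.4–157.7 FPKM, and their part was not tested. With trimmed-mean scaling *Fzd1* was no longer called, and the calls over all genes went from 799 higher and 272 lower to 591 and 470. Without siH19 replicate 1 neither gene was called (0 members). *Wnt2* was also lost without siH19 replicate 2 or 3, since its siCtrl libraries lie below 1 FPKM and it then no longer passed the filter, and without replicate 3 only *Fzd1* was called (1 member).

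In vWAT limma called 0 of 25 members at d3, against 0.0305% of 13097 genes, and 0 of 27 members at d0, against 1.53% of 13063 genes. At an unadjusted p under 0.05 there were 6 members and 1315 genes at d3, and 6 members and 2303 genes at d0. Over all genes the d0 calls were 43 higher and 157 lower, and 68 and 126 with trimmed-mean scaling. The smallest of these p at d3 belonged to *Wnt4*, with 20.0, 20.09 and 20.63 FPKM in siCtrl and 15.78, 15.26 and 17.71 FPKM in siH19 (log2 change -0.30, SE 0.0658, limma adjusted p = 0.31).

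**Figure D5:**
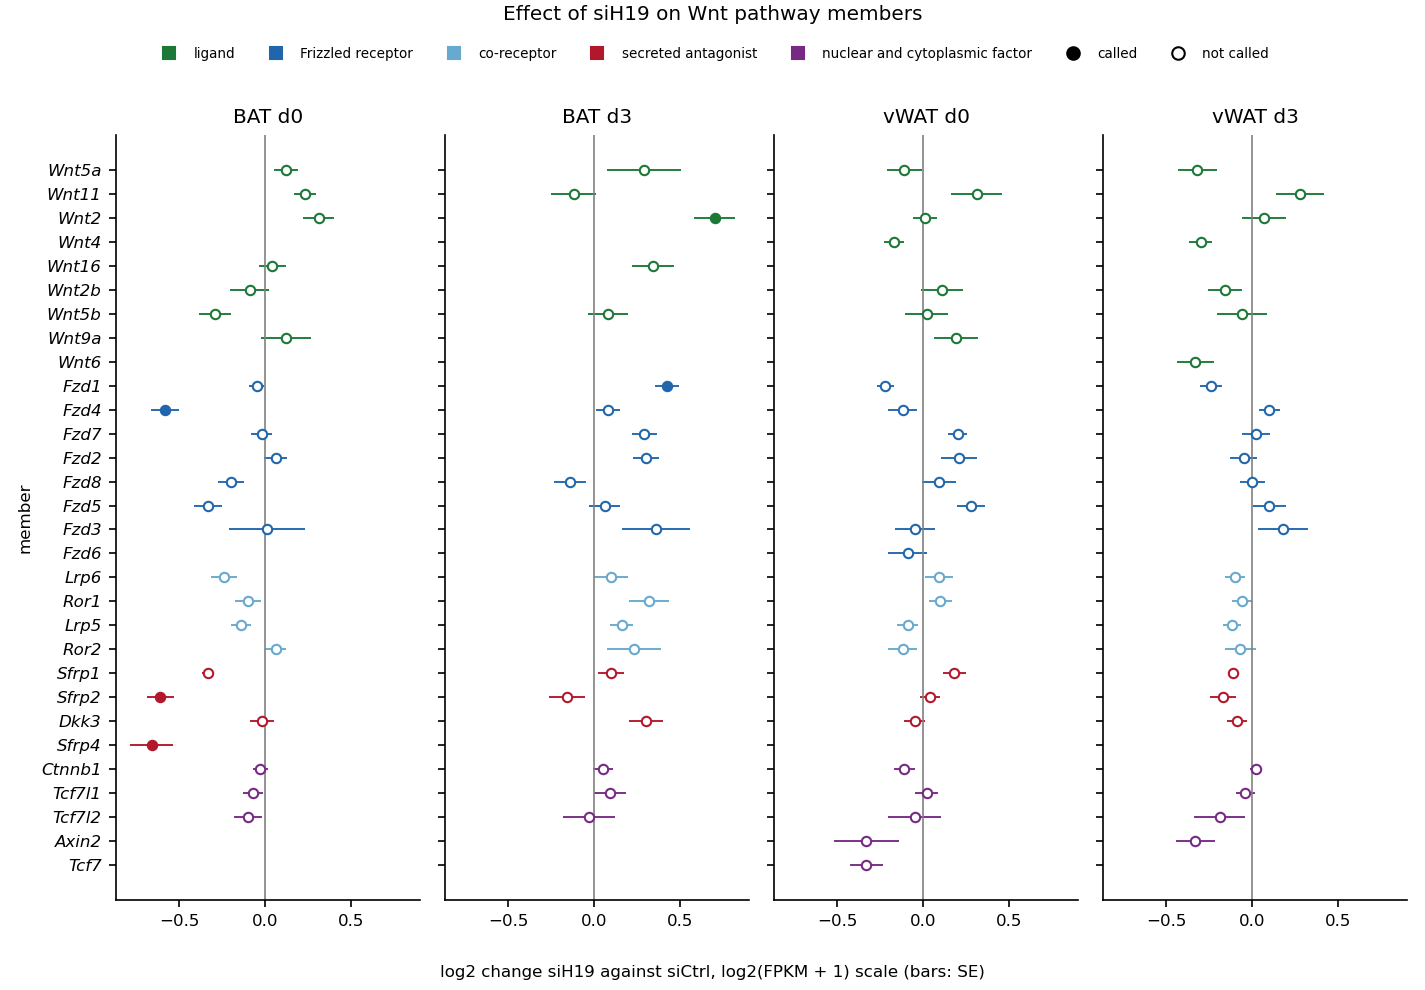
Log2 change of siH19 against siCtrl on the log2(FPKM + 1) scale (x axis, SE bars) for the members tested (y axis, coloured by role) in BAT and vWAT at d0 and d3. Filled points were called, namely *Fzd4*, *Sfrp2* and *Sfrp4* in BAT at d0 and *Wnt2* and *Fzd1* in BAT at d3, and there is none in vWAT.

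Whether the siH19 effect differed between depots at d3 was tested directly. The knockdown itself differed, with *H19* going from 89.8 to 13.7 FPKM in BAT and from 8.59 to 0.528 FPKM in vWAT at d3, and its part was not tested. The depot-by-siRNA term was called for 6 of 26 members, all positive (a higher change in BAT), against 10.5% of 13762 genes, 7.02% positive. *Fzd1* had the largest term, 0.67 (SE 0.095, limma adjusted p = 0.0027), with siH19 changes of 0.42 in BAT and -0.24 in vWAT. *Wnt2* followed with 0.62 (SE 0.172, limma adjusted p = 0.045), then *Dkk3* (0.40), *Wnt4* (0.36), *Fzd2* (0.35) and *Lrp5* (0.28). *Dkk3* stood at 4.915, 4.523 and 4.94 FPKM in siCtrl and 6.587, 5.357 and 6.581 FPKM in siH19 in BAT, and at 14.87, 14.63 and 13.51 and then 13.08, 13.68 and 13.38 FPKM in vWAT. *Fzd2* stood at 2.967, 2.992 and 3.004 and then 3.927, 3.807 and 4.016 FPKM in BAT, and at 12.2, 12.93 and 11.89 and then 11.07, 13.22 and 11.38 FPKM in vWAT. For *Lrp5* the values were 10.86, 10.27 and 10.5 and then 12.29, 11.19 and 12.25 FPKM in BAT, and 11.81, 11.3 and 11.34 and then 10.56, 10.47 and 10.44 FPKM in vWAT. *Wnt4* stayed below 0.35 FPKM in BAT at d3, so its term restates the vWAT change, which was not called (-0.30, limma adjusted p = 0.31), and the term was lost at a pseudocount of 0.1. With trimmed-mean scaling *Fzd1* and *Wnt2* were the 2 members still called, while over all genes 966 positive and 485 negative terms became 616 and 768. Leaving out any of the 12 libraries left 1 to 4 members called, and *Fzd1* was among them each time. *Wnt2* was lost in 10 of these 12 fits, without the filter on low values and with the replicate block.

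Within BAT, the siH19 change differed between days for 5 of 25 members, all with a higher change at d3, against 9.06% of 13575 genes, 7.79% in that direction. *Fzd4* had the largest term, 0.66 (SE 0.112, limma adjusted p = 0.0055), and stood at 35.41, 33.12 and 30.45 FPKM in siCtrl and 37.07, 34.52 and 33.37 FPKM in siH19 at d3, where the groups overlapped. The terms of *Fzd1* (0.47), *Sfrp1* (0.42), *Fzd7* (0.31) and *Lrp5* (0.30) followed. *Lrp5* stood at 13.18, 12.65 and 12.62 FPKM in siCtrl and 11.26, 12.09 and 11.39 FPKM in siH19 at d0. *Fzd1* stood at 38.85, 37.74 and 40.57 FPKM in siH19 at d0, where it overlapped with siCtrl. *Sfrp1* stood at 236.1, 230.3 and 245.4 FPKM in siH19 at d0 and 50.91, 44.77 and 50.01 FPKM at d3. *Fzd7* stood at 15.66, 16.24 and 16.07 FPKM in siCtrl and 15.4, 16.88 and 15.06 FPKM in siH19 at d0, and at 7.272, 6.774 and 6.457 and then 8.668, 8.458 and 8.566 FPKM at d3. With trimmed-mean scaling 3 of the 5 were called, without *Fzd7* and *Lrp5*, and over all genes 1058 positive and 172 negative terms became 554 and 304. The same 3 were the only calls without any 1 of the 3 siCtrl libraries of d0, without siCtrl replicate 2 or 3 of d3, and without siH19 replicate 1 of either day.

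The wider pathway was described from lists of further genes. Of 12 genes of secretion and extracellular regulation tested in vWAT siCtrl, 3 rose and 6 fell from d0 to d3, where 26.3% of all genes rose and 23.9% fell. *Rspo1*, an R-spondin that enhances Wnt signalling, rose from 4.01 to 18.4 FPKM (log2 change 1.94), and *Porcn*, the acyltransferase that lipid-modifies Wnt ligands, rose from 1.87 to 8.1 FPKM (1.68). In BAT siCtrl 1 of 11 rose and 9 fell, where 29.9% of all genes rose and 35.3% fell, and those that fell included *Sdc1* (-2.33) and *Gpc6* (-2.17), both cell surface proteoglycans. The list counts between depots at d3 stand beside 16.5% of all genes higher and 32.1% lower in BAT, a split that turned with trimmed-mean scaling as given above. At d3 *Rspo1* was 0.103 FPKM in BAT and 18.4 FPKM in vWAT (log2 difference -4.13). Of 19 genes of the destruction complex and Dishevelled group, 1 was higher and 4 were lower in BAT at d3, a smaller share lower than that of all genes, led by *Nkd1*, a feedback inhibitor and target, with 2.84 and 25.1 FPKM (-2.77). Of 18 genes of β-catenin-independent signalling, 7 were lower and none was higher in BAT at d3, a share lower that is near that of all genes, led by *Daam2* (-2.72) and by the planar polarity gene *Prickle1* (-2.52). Of 11 membrane regulators, 8 were lower in BAT at d3, including the receptor *Ptk7* (-2.10), and 0 were higher. Of 18 nuclear cofactors, 6 were lower and 1 was higher, a share lower that is near that of all genes, and *Tle2*, a corepressor, had a log2 difference of -1.37.

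Genes listed as targets of the β-catenin branch moved mostly downward over time, 18 of 21 in BAT siCtrl and 13 of 21 in vWAT siCtrl, with 2 and 1 rising, against 35.3% of all genes lower in BAT and 23.9% in vWAT. These shares over all genes moved with trimmed-mean scaling as given above, under which the list was not checked. *Wisp1* fell by 4.09 in BAT and by 2.87 in vWAT on the log2 scale, *Cd44* by 3.39 and 2.79, and *Sox9* by 2.94 and 2.26. With siH19 in BAT at d3, 8 of these 21 were higher and 0 were lower (median 0.27), against the 6.39% of all genes called higher. Precursor markers were also higher in these libraries, 3 of the 4 tested (median 0.43), and their part was not tested. The calls over all genes went from 799 higher and 272 lower to 591 and 470 with trimmed-mean scaling. *Ccnd1*, which encodes cyclin D1, stood at 8.74 and 19.7 FPKM (log2 change 1.13, SE 0.204, limma adjusted p = 0.015), followed by *Runx2* (0.93), *Cd44* (0.88) and *Fosl1* (0.85), all of which many other pathways also regulate. *Axin2*, at 0.653 and 0.909 FPKM, did not pass the filter. In BAT at d3 *Cthrc1*, *Trabd2b* and *Sdc1* were higher among 11 genes of secretion and extracellular regulation (0.64, 0.60 and 0.58). At d0 siH19 lowered *Apcdd1*, a membrane-bound Wnt inhibitor that is also on the target list, in both depots, by 0.79 in BAT and by 0.47 in vWAT on the log2 scale, and in BAT it lowered *Rspo3* (-0.50) and *Igfbp4* (-0.45) while *Wls*, the Wnt sorting receptor, was higher (0.39). The adipocyte marker sum was lower in the siH19 libraries of both depots at d0, in vWAT at 2435–2742 against 4122–4135 FPKM with 6 of 7 markers called lower (median -0.58), and its part was not tested. In vWAT at d0 *Cthrc1* fell too (-0.57), and at d3 limma called none of the genes of these 6 lists. The calls of the list genes were not checked under the alternative settings, which in BAT at d0 removed member calls.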

How the data were processed

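RNA of 24 libraries was sequenced (groups and replicate numbers from the sample labels). The authors aligned reads to GRCm38 with Tophat2 2.0.10, computed expression with Cufflinks (version 2.2.1 in the submitters' notes) and deposited 1 table without counts. The deposited values were taken as FPKM, a unit the paper uses for its RNA-seq values and that Cufflinks gives, since the table names none. Reads are described as single-end in the paper and paired-end in the labels. Because counts are absent, depth is unknown and neither counting intervals nor floors are given. FPKM depend on the composition of the library, so that a rise of abundant genes lowers all others.

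*H19* has no symbol in the table and was matched by its Ensembl ID. Tests used limma 3.58.1 on log2(FPKM + 1) (R 4.3.3, intensity trend), fitted to the libraries of each comparison, for genes with at least 1 FPKM in 3 of them, and interactions on 12 libraries were called at an adjusted p under 0.05 alone. Alternatives were a pseudocount of 0.1, no filter, trimmed-mean scaling, all 24 libraries in 1 fit, no minimum fold, the replicate block, leaving out each library and, chosen after the data were seen, no intensity trend and leaving out libraries from the interactions. Trimmed-mean factors were unweighted. The steps were tested on simulated data.

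Members and lists were chosen with earlier results of these data known. Named were up to 8 called members per comparison with the largest log2 change, values in every library for those called with siH19 or by an interaction and for the highest-mean member of each role, and up to 4 called genes per further list. Other members beside these were named after their values were seen. Sequences are from RefSeq (GRCm38.p6) and the study's oligo list. Coordinates of the promoter windows are those of RefSeq, and the distances between genes use the gene coordinates deposited with the values. Columns of the table that held no sample numbered 0.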

Additional observations from a re-analysis of the deposited data

Results flagged for a closer look

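Several members changed differently in 2 groups under the same contrast, by a limma interaction term with an adjusted p under 0.05. Values are differences between log2 changes. Between depots at d3, the siH19 change was higher in BAT than in vWAT for *Fzd1* (0.67), *Wnt2* (0.62), *Dkk3* (0.40), *Wnt4* (0.36), *Fzd2* (0.35) and *Lrp5* (0.28). Between days within BAT, the siH19 change was higher at d3 than at d0 for *Fzd4* (0.66), *Fzd1* (0.47), *Sfrp1* (0.42), *Fzd7* (0.31) and *Lrp5* (0.30). *Wnt4* was below 0.35 FPKM in BAT at d3, so its term restates a vWAT change that was not called, and *Wnt2* was lost in 10 of the 12 fits without 1 library. *Fzd1* and *Lrp5* appear in both comparisons, which share the BAT d3 libraries.

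Between depots in siCtrl cells, the change from d0 to d3 was lower in BAT than in vWAT for 4 ligands, *Wnt16* (-2.15), *Wnt2b* (-1.31), *Wnt4* (-1.07) and *Wnt6* (-1.03). It was lower for 5 Frizzled receptors, *Fzd2* (-1.55), *Fzd4* (-0.98), *Fzd5* (-0.83), *Fzd8* (-0.68) and *Fzd7* (-0.53), and for the co-receptors *Ror2* (-1.47) and *Ror1* (-1.30). All 4 antagonists tested were among them, *Sfrp1* (-3.90), *Sfrp2* (-1.41), *Dkk3* (-1.32) and *Sfrp4* (-1.20), and so was *Tcf7l1* (-1.24). The change was higher in BAT for *Tcf7* (1.20) and *Fzd6* (0.57), which fell in vWAT. *Wnt4*, *Wnt6*, *Tcf7* and *Fzd6* were below 1 FPKM in BAT on both days and *Wnt16* was below 1 FPKM in vWAT, so that these 5 terms restate the change in the depot where the gene is high and are no evidence of a difference between depots. No outlier test was run on the groups of 3 libraries.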

How the results depend on the processing

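No alternative reversed a call of a member, and the genes of the further lists were not checked under the alternatives. In BAT at d0 the 3 members called with siH19 became 0 without the filter on low values and 0 with the replicate block. In BAT at d3 the 2 became 1 with trimmed-mean scaling and 4 with no minimum fold. For the depot-by-siRNA term the 6 members became 2 without the filter, 2 with trimmed-mean scaling and 3 with the replicate block, and for the day-by-siRNA term in BAT the 5 became 3 with trimmed-mean scaling, 10 with all 24 libraries in 1 fit and 3 with the replicate block. The cause was not tested, except that without the filter more genes were tested. Other counts from the same alternatives stayed within 1.5 times. Same-numbered libraries did not deviate together (lowest correlation of deviations per comparison -0.14 to 0.03), so the numbers were not read as pairs, and with the block the counts were 2 in BAT at d3 with siH19, 0 in vWAT with siH19 on both days, 17 for BAT and 19 for vWAT over time, 15 and 16 between depots at d0 and d3, and 19 for depot by day, where *Ctnnb1* was added. Leaving out 1 library gave 0 to 2 members in BAT at d0 and 0 to 2 at d3 with siH19, 0 to 0 in vWAT on both days, 13 to 17 for BAT and 17 to 18 for vWAT over time, 11 to 15 and 11 to 16 between depots at d0 and d3, 1 to 4 for depot by siRNA, 16 to 19 for depot by day and 3 to 6 for day by siRNA. Without any 1 library of a group, genes expressed in that group alone no longer pass the filter, which removed *Wnt4* and *Axin2* from the depot comparisons (each vWAT library of that day), *Wnt16* at d0 (each BAT library), *Sfrp4*, *Wnt2* and *Wnt2b* over time in BAT (each BAT d0 library), *Fzd6* and *Tcf7* (each vWAT d0 library) and *Wnt6* (each vWAT d3 library) by construction. *Fzd1* was called for depot by siRNA in every fit without 1 library.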
